A study of Arabidopsis thaliana with 36 samples.

Results

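Transcripts of 56 genes for proteins of the cytosolic ribosome were followed in hypocotyl segments of Arabidopsis thaliana after wounding. The genes were chosen by their annotation as cytosolic ribosomal proteins, from a list of locus names, and all 56 were found among the 32833 loci of each count table. They comprise 21 genes of the small (40S) subunit and 35 of the large (60S) subunit and belong to 40 protein families. A further 156 loci carry a cytosolic ribosomal protein annotation and serve below as a comparator. The material was hypocotyl, the seedling stem, of wild-type Col-0 (WT) and of the ahk3 ahk4 line, which carries mutations in a pair of cytokinin receptor genes. The labels do not give the alleles. Both genotypes were germinated in light after cold stratification and then kept in low light, and all were cut just above the junction with the root. From each genotype, basal segments (next to the cut) and medial segments were taken at 0, 8 and 16 h after wounding, with 3 biological replicates in each of the 12 groups and 36 libraries in all. The 0 h segments are the reference of their own genotype and region, and how many seedlings went into a replicate is not given. No uncut seedlings were sampled at 8 or 16 h. A change with time after wounding therefore cannot be told apart from one with time of day, light or handling.

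A ribosome is built from ribosomal RNA and one copy of most ribosomal proteins, and in Arabidopsis each protein is encoded by a small family of near-identical genes. Their transcripts are abundant in dividing and growing cells, and many of their promoters carry a telo box or a site II element. The kinase TOR and its substrate S6 kinase act on this system, with the 40S protein RPS6 as the best known phosphorylation target. Plants with a mutated ribosomal protein gene often show pointed first leaves, which gave several members their second names.

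Reads assigned to genes numbered 6136167 to 13557332 per library, with a median of 9744646. The 56 members took between 0.976% and 6.34% of those reads. All levels below are CPM, the counts scaled to a common library size by TMM factors, and differences are log2 fold changes with their standard error (SE) from a single edgeR fit over all 36 libraries. A gene is called when its Benjamini-Hochberg adjusted p over 19819 tested genes is below 0.05. All 56 members were tested. The libraries count the 3' end of a transcript. Levels and summed levels are compared between samples and not between genes. The receptor transcripts followed the labels. AHK3 was lower in ahk3 ahk4 in all 6 genotype comparisons, by -3.27 to -4.40 on the log2 scale. AHK4 was called lower in 4 of 6, and missed the threshold at 8 h in basal (log2 difference -2.16, adjusted p = 0.0648) and medial segments (-1.57, adjusted p = 0.105). The libraries also differed in the share of reads that aligned at more than 1 place and were left uncounted, from 2.98% to 60.3% of a library, and this share is set beside the results it moves with. None of the 56 members has a 50-base stretch in the last 300 transcript bases that recurs elsewhere in the genome, with 13927 of 14056 stretches found at 1 place and the other 129 spanning a splice junction.

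The summed level of the 56 genes rose several-fold within 8 h in every genotype and region. In WT basal segments the sum lay between 10230 and 10790 CPM at 0 h, between 36680 and 47250 CPM at 8 h and between 45980 and 49400 CPM at 16 h. In ahk3 ahk4 basal segments it lay between 9901 and 10720 CPM at 0 h, between 37960 and 57220 CPM at 8 h and between 51450 and 66700 CPM at 16 h. The 16 h libraries of ahk3 ahk4 basal segments therefore lie above those of WT basal segments without overlap, whereas the 0 h libraries overlap. For WT medial segments the sum went from 12810 to 15310 CPM at 0 h, to 33670 to 47400 CPM at 8 h and 36030 to 40470 CPM at 16 h. In ahk3 ahk4 medial segments it went from 10510 to 10740 CPM at 0 h, to 35330 to 41820 CPM at 8 h and 30490 to 37590 CPM at 16 h. In basal and medial segments of both genotypes the 16 h range thus overlaps the 8 h range. In these bulk segments a change in the share of cells of one type and a change in RNA per cell cannot be told apart.

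**Figure D1:**
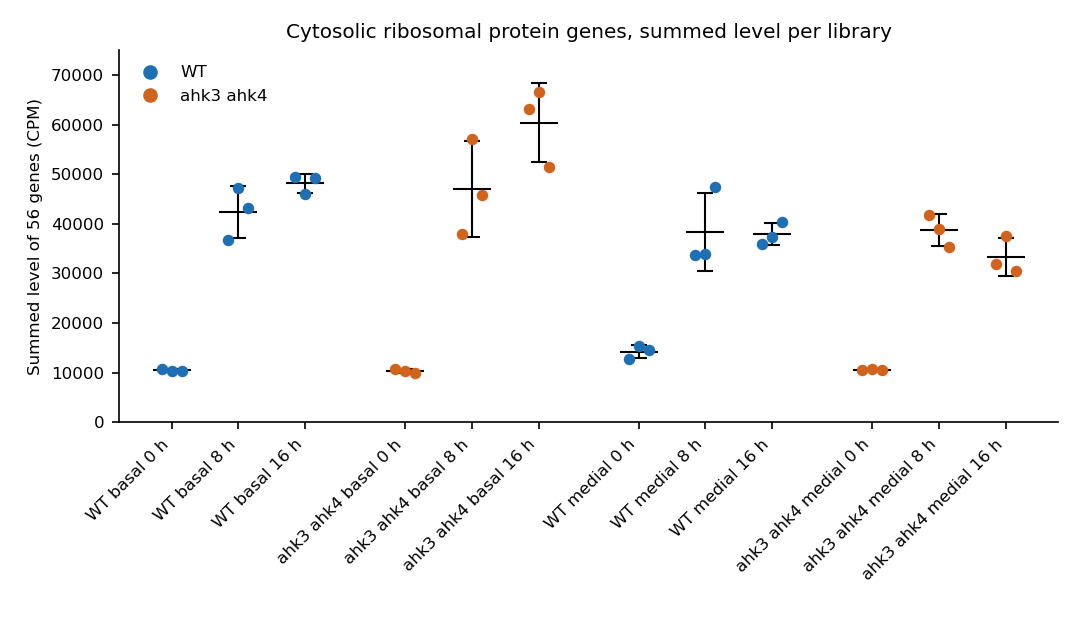
Summed level of the 56 ribosomal protein genes in CPM (vertical axis) in each of the 36 libraries, by group, with bars for the group mean ± SD of 3 replicates. All 8 h and 16 h libraries lie above all 0 h libraries, and the highest group mean is that of ahk3 ahk4 basal segments at 16 h, 60450 CPM.

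Gene by gene, the rise from 0 to 8 h was shared by nearly every member. In WT basal segments 56 of 56 members were called higher and 0 lower, where 20.7% of all tested genes were called higher and 19.1% lower. The median log2 change of the members was 2.08, a 4.23-fold rise, against -0.03 for all tested genes. Medial segments of WT had 54 called higher and 0 lower, against a background of 20.6% higher, and the median change was 1.62, or 3.07-fold. In ahk3 ahk4 basal segments 56 were called higher, with 23.3% of all genes called higher and 19.7% lower, and the median was 2.28, or 4.86-fold. In ahk3 ahk4 medial segments 56 were called higher, with 20.7% of all genes called higher, and the median was 1.84, or 3.58-fold. Every 8 h library lay above every 0 h library for 56 members in WT basal, 55 in WT medial, 56 in ahk3 ahk4 basal and 56 in ahk3 ahk4 medial segments. Over all tested genes that pattern held for 26.9%, 24.5%, 26.8% and 21.9%. At the level of the single gene, 54 members were called in all 4 time series. The exceptions, RPS3C and RPS14A, missed the threshold in WT medial segments alone. The 40S members had a somewhat smaller median change than the 60S members in each series, 1.88 against 2.14 in WT basal, 1.45 against 1.65 in WT medial, 2.08 against 2.31 in ahk3 ahk4 basal and 1.62 against 1.93 in ahk3 ahk4 medial segments.

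**Figure D2:**
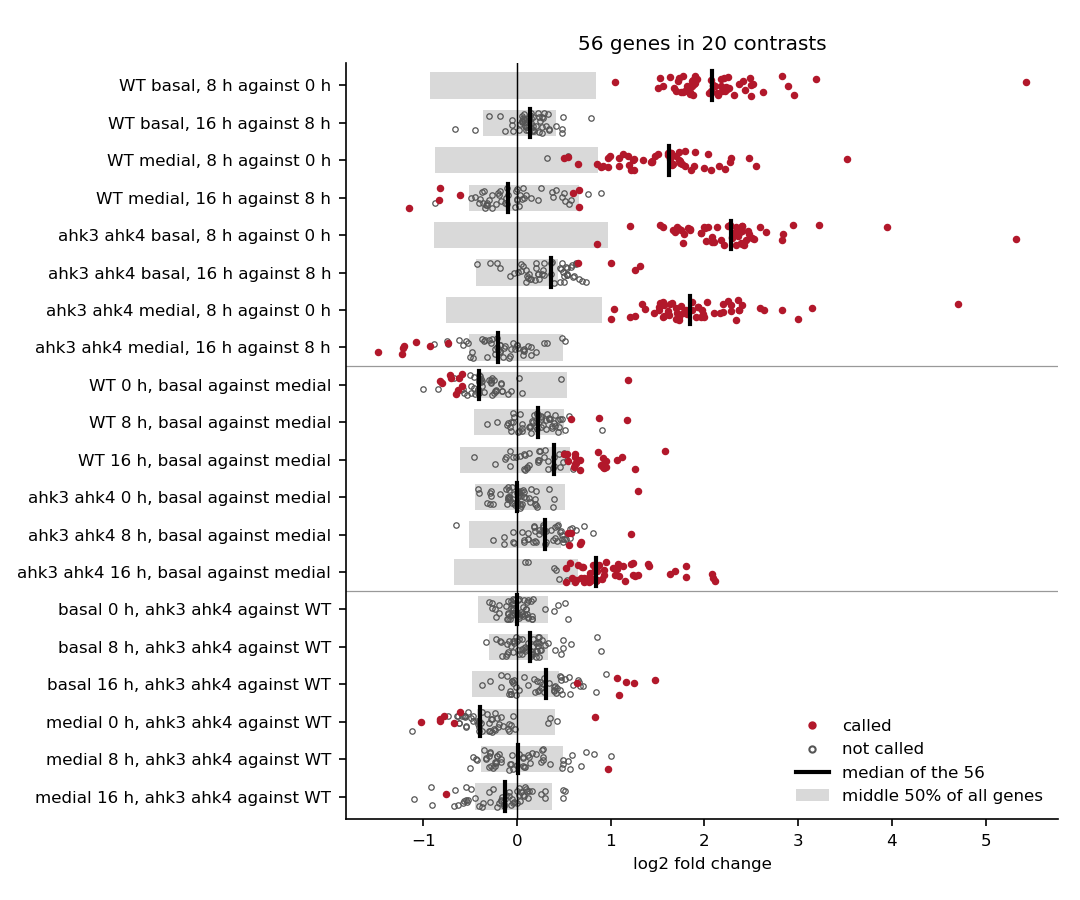
Log2 fold changes of the 56 genes in the 20 comparisons of 2 groups, one row per comparison, with filled points for called genes, open points for the others, a black bar at the median of the 56 and a grey box for the middle 50% of all tested genes. In the rows for 8 h against 0 h the points lie between 0.32 and 5.43, and in the other rows the medians lie between -0.40 and 0.85.

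Across the 12 groups the highest group mean of a member was between 3.91 and 47.3 times its lowest, with a median of 6.36. The lowest group was a 0 h group for all 56 members. The highest was ahk3 ahk4 basal at 16 h for 39 members, WT basal at 16 h for 11, and a basal group at 8 h for the other 6, with 3 in each genotype. No member had its highest mean in a medial group.

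**Figure D3:**
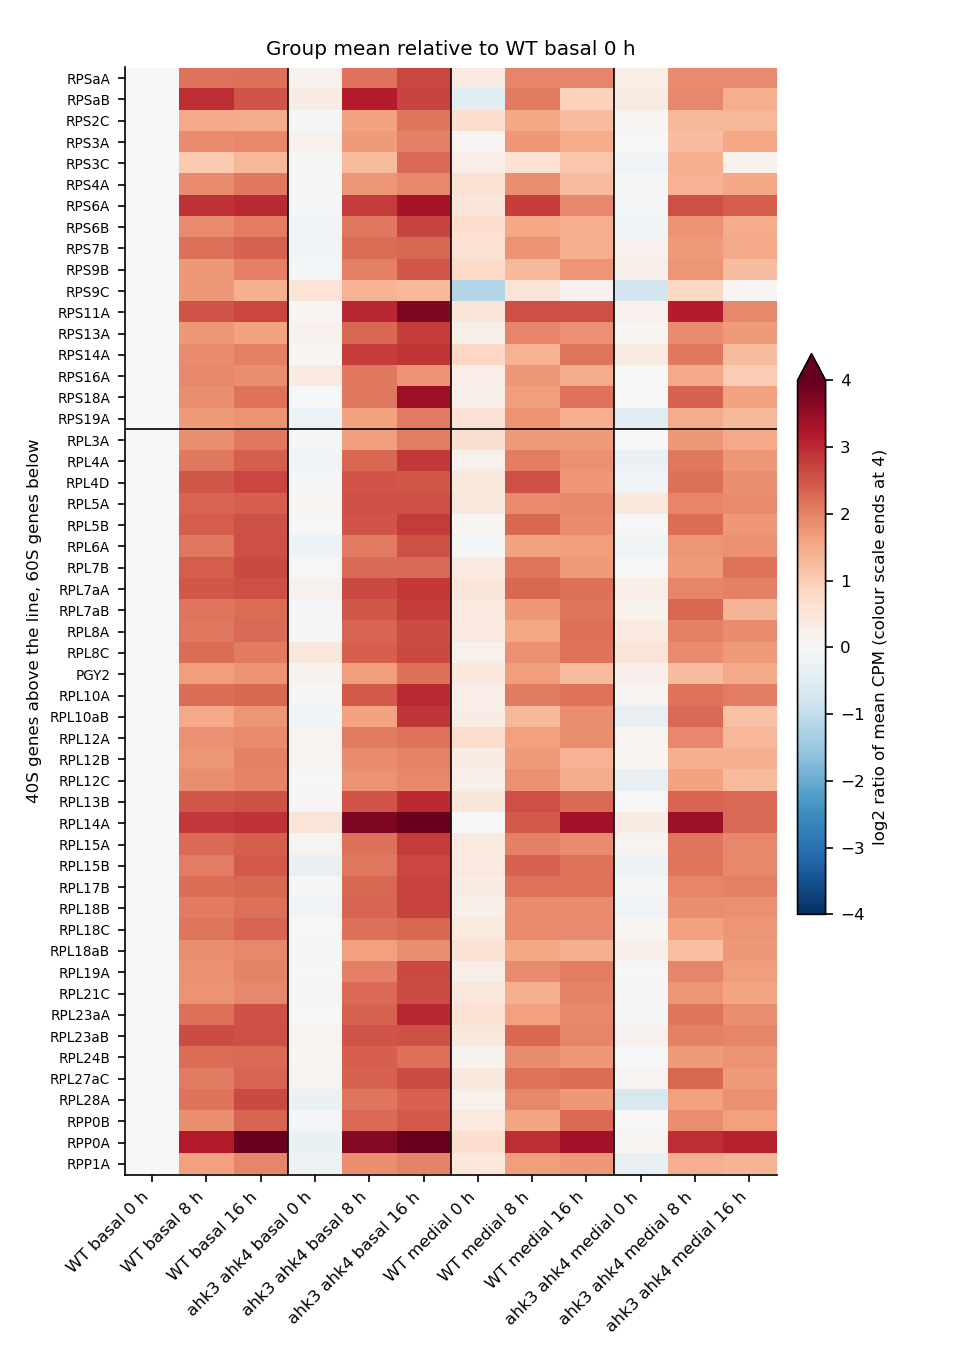
Mean level of 52 of the 56 genes in the 12 groups, as log2 ratio to its WT basal 0 h mean, with 40S genes above the line and 60S genes below and the colour scale ending at 4. The 8 h and 16 h columns are raised for nearly all of them, and RPS3C and RPS9C are close to their WT basal 0 h mean in some medial groups.

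Among the 40S proteins, RPS6 is the substrate of S6 kinase and is encoded by a pair of genes, both of them members. RPS6A (AT4G31700) stood at 154, 163 and 141 CPM in WT basal libraries at 0 h and at 867, 1267 and 1263 CPM at 8 h. RPS6B (AT5G10360) went from 185, 188 and 178 CPM to 604, 719.9 and 737 CPM. The 3 libraries at 8 h are far above the 3 at 0 h for both genes, and the rise was 2.89 (SE 0.215, adjusted p = 4.3e-13) for RPS6A and 1.90 for RPS6B. In WT medial segments the gap between them was wider. RPS6A rose by 2.27 there, from 189.9, 228 and 225 CPM to 839, 1024 and 1236 CPM. RPS6B rose by 0.90, from 273, 305 and 290 CPM to 556, 563 and 500 CPM. The ahk3 ahk4 line showed rises of 2.84 and 2.20 in basal and 2.64 and 1.97 in medial segments for RPS6A and RPS6B.

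RPSa, the plant counterpart of the animal laminin receptor precursor on the 40S surface, is also encoded by a pair of member genes. RPSaA (AT1G72370) went from 278, 289 and 294 CPM to 1092, 1579 and 1215 CPM in WT basal segments, a rise of 2.18. RPSaB (AT3G04770) went from 8.46, 9.03 and 7.68 CPM to 53.0, 66.9 and 75.6 CPM, a rise of 2.96 (SE 0.259, adjusted p = 1.7e-11). The 8 h libraries are above the 0 h libraries for both genes, with no overlap. In WT medial segments the rises were 1.61 for RPSaA and 2.55 for RPSaB, and RPSaB went from 6.98, 4.21 and 7.06 CPM to 35.1, 33.8 and 37.5 CPM. In ahk3 ahk4 they were 2.00 and 2.83 in basal and 1.63 and 1.55 in medial segments.

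The promoters of these genes differ in the elements they carry and are shown for that reason. The sequences are from RefSeq (build TAIR10.1), 250 bases immediately before the annotated start, on the minus strand, written 5′ to 3′. Capitals mark a telo box (AAACCCTA) or a site II element (TGGGCC or TGGGCT), read on either strand. RPS6A is at chr4:15347805-15348054, RPS6B at chr5:3260255-3260504, RPSaA at chr1:27244932-27245181 and RPSaB at chr3:1311130-1311379. The RPSaA stretch overlaps the neighbouring gene AT1G72390 and the RPSaB stretch overlaps AT3G04780, and neither RPS6 stretch overlaps another gene.
RPS6A: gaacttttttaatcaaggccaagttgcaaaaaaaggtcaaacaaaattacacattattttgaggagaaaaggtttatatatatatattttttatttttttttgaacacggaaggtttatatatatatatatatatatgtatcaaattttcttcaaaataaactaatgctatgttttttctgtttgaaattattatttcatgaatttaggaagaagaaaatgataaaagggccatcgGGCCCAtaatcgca
RPS6B: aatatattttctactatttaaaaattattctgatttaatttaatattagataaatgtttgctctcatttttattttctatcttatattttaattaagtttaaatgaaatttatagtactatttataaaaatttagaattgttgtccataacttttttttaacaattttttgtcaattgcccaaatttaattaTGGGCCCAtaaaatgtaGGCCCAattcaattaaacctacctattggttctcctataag
RPSaA: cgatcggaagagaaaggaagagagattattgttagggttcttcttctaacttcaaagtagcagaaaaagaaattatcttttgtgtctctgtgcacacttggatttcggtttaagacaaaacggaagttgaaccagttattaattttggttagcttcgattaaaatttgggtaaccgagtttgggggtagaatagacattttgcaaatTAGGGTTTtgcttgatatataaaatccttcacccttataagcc
RPSaB: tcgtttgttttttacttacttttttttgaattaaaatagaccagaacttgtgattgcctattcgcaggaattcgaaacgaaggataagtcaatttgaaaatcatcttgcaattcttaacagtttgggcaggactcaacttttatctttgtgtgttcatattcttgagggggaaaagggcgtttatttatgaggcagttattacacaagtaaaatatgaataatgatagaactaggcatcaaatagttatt
The RPS6A stretch holds 1 site II element, beginning 14 bases before the start. The RPS6B stretch holds 3, beginning 58, 56 and 41 bases before the start, with the first pair overlapping. The RPSaA stretch holds a telo box, beginning 43 bases before the start, and no site II element. The RPSaB stretch holds none of these letters. RPSaB rose more than RPSaA in 3 of the 4 time series, and whether the rises of this pair go with their elements was not tested.

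Over all members, in the 300 bases from 250 before to 50 after the start, a telo box was found for 28 of 56 (50%) and a site II element for 45 (80.4%). Of all 27443 protein-coding genes 6.22% and 21.7% held them, and of the other 156 cytosolic ribosomal protein genes 44.2% and 76.3%. Both elements were found for 22 members (39.3%, against 2.2% of all protein-coding genes) and neither for 5 (8.93%, against 74.3%). The median rise differed little by element, and the difference was not tested. In WT basal segments the median change was 2.07 for the 28 members with a telo box and 2.09 for the 28 without, and 2.07 for the 45 with site II and 2.18 for the 11 without. In WT medial segments it was 1.53 with and 1.64 without a telo box, and 1.50 with and 1.63 without site II. In ahk3 ahk4 segments the medians with and without a telo box were 2.25 and 2.28 in basal and 1.86 and 1.84 in medial segments. With and without site II they were 2.27 and 2.36 in basal and 1.82 and 1.93 in medial segments. The median was thus slightly lower with site II in each series.

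Several of the smallest changes were among 40S genes, although in ahk3 ahk4 medial segments the smallest rise was that of the 60S gene RPL18aB (1.00). RPS3C (AT5G35530), for a protein of the mRNA entry channel, went from 46.0, 46.3 and 48.5 CPM to 106, 94.2 and 90.8 CPM in WT basal segments. The groups do not overlap, and its rise of 1.04 (SE 0.301, adjusted p = 0.00536) was the smallest there. Its WT medial libraries were at 51.2, 73.9 and 44.4 CPM at 0 h and, at 8 h, at 84.9, 59.7 and 67.4 CPM. Those groups overlap, and the difference of 0.32 (SE 0.299, adjusted p = 0.415) missed the threshold. RPS14A (AT2G36160), for a protein of the 40S platform, was at 211, 269.6 and 275 CPM at 0 h and 372, 327 and 402 CPM at 8 h in WT medial segments. Here every 8 h library is higher, but the difference of 0.54 (adjusted p = 0.152) was not called. RPS9C (AT5G39850) had the smallest rise in ahk3 ahk4 basal segments, 0.85 (SE 0.281, adjusted p = 0.0136), and RPS9B (AT5G15200) the smallest called rise in WT medial segments, 0.50 (SE 0.201, adjusted p = 0.0448). RPS9 proteins line the decoding side of the 40S subunit. RPS18A (AT1G22780), whose loss gives pointed first leaves, rose by 1.87 in WT basal and 1.44 in WT medial segments. RPS13A (AT4G00100), with a like mutant phenotype, rose by 1.73 and 1.70.

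In the 60S subunit, the acidic P stalk recruits the translation factors that hydrolyse GTP. RPP0A (AT2G40010), a gene of the stalk's base protein, went from 3.50, 1.69 and 2.62 CPM to 20.1, 23.2 and 27.6 CPM in WT basal segments. All 8 h libraries exceed all 0 h libraries, and the rise of 3.18 (SE 0.341, adjusted p = 1.37e-09) was the largest of the 60S members there. RPP0B (AT3G09200) rose by 1.85, from 521, 430 and 504 CPM to 1334, 2003 and 1902 CPM. RPP1A (AT1G01100), for the protein that binds to it, rose by 1.63. The stalk base proteins RPL12 and RPL9 rose less than the median member, with RPL12A at 1.84, RPL12B at 1.77, RPL12C at 1.85 and PGY2 (AT1G33140), an RPL9 gene, at 1.67.

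RPL5 carries the 5S ribosomal RNA into the subunit, and its genes rose nearly alike in WT basal segments. RPL5A (AT3G25520) went from 164, 145 and 152 CPM to 738, 836 and 722 CPM, a rise of 2.32. RPL5B (AT5G39740) went from 125, 124 and 99.2 CPM to 553, 630 and 695 CPM, a rise of 2.43. Neither gene's 8 h libraries come near its 0 h libraries. The pair separated in medial segments, with rises of 1.43 for RPL5A and 2.22 for RPL5B in WT and 1.56 and 2.25 in ahk3 ahk4. Around the exit tunnel, RPL4D (AT5G02870) rose by 2.50, RPL4A (AT3G09630) by 2.09, RPL23aB (AT3G55280) by 2.62, RPL23aA (AT2G39460) by 2.20 and RPL17B by 2.23 in WT basal segments. RPL4 is a tunnel-wall protein whose loss disturbs vacuolar protein trafficking in Arabidopsis, and RPL23a forms the docking site at the tunnel mouth. Near the peptidyl transferase centre, RPL3A (AT1G43170) rose by 1.87, RPL8A by 2.11, RPL8C by 2.25 and RPL10A (AT1G14320) by 2.22.

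RPL10aB (AT2G27530), also known as PIGGYBACK1 for its leaf polarity phenotype, encodes the protein of the L1 stalk. In WT basal segments it went from 147, 147 and 136 CPM to 479.8, 326 and 413 CPM, one of the smaller rises at 1.51. In ahk3 ahk4 medial segments it went from 129, 118 and 93.8 CPM to 1037, 613 and 405 CPM, a rise of 2.59. Its 8 h libraries there differ widely, and the highest is the replicate with the lowest share of multiply aligned reads (3.82%). RPL24B (AT3G53020), needed for translation reinitiation after upstream reading frames, rose by 2.24 in WT basal and 1.74 in WT medial segments. RPL27aC (AT1G70600) rose by 2.07 and 1.76. RPL14A (AT2G20450), a 60S surface protein gene, went from 21.3, 13.8 and 14.3 CPM to 148, 114 and 89.7 CPM in WT basal segments, a rise of 2.83 (SE 0.356, adjusted p = 5.5e-08). It was among the largest rises in all 4 series, with 2.48, 3.22 and 3.14 in WT medial, ahk3 ahk4 basal and ahk3 ahk4 medial segments.

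Genes of one family thus did not always rise by the same amount. The comparison within families covers 13 of the 40 families, with 27 genes in all. In WT basal segments the gap between the largest and smallest rise in a family had a median of 0.34 and exceeded 0.5 in 4 of 13 families. The gap was 0.03 for RPS9, 0.07 for RPL18 and 0.09 for RPL12, and 1.34 for RPP0. The median gap in WT medial segments was 0.76, and 9 of 13 families exceeded 0.5, with RPS6 at 1.37. In ahk3 ahk4 the median gap was 0.30 in basal and 0.35 in medial segments, with 4 families above 0.5 in each. RPP0 had the largest gap of the 13 in the basal segments of both genotypes and in ahk3 ahk4 medial segments. These gaps are a description, and the differences between genes were not tested.

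**Figure D4:**
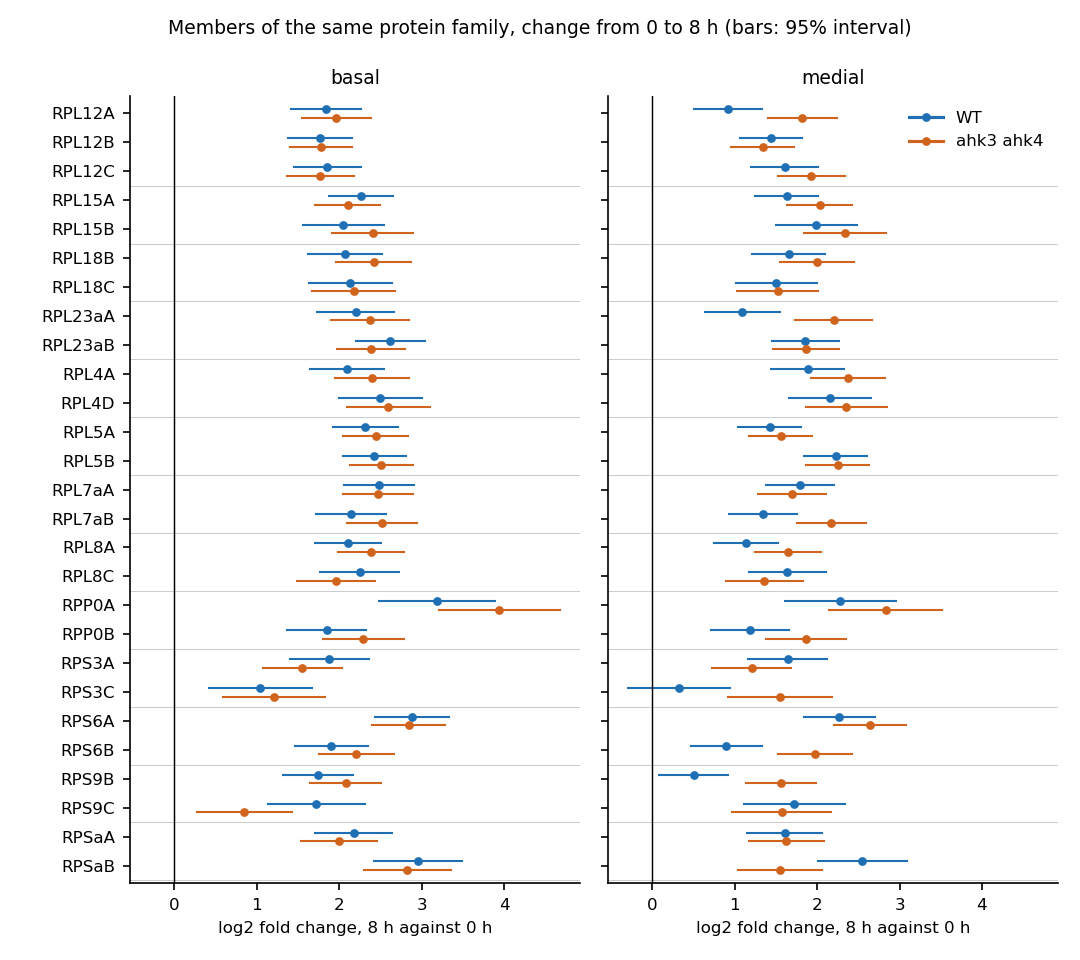
Log2 fold change from 0 to 8 h for the 27 genes in 13 families with more than 1 member, basal segments in one panel and medial segments in the other, by genotype, with 95% intervals from the edgeR fit. RPP0A stands above RPP0B in both panels, and in medial segments of both genotypes RPS6B and RPL5A sit below the other gene of their family.

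From 8 to 16 h few members moved further. In WT basal segments edgeR called 0 members higher and 0 lower, where 3.44% of all genes were called higher and 2.92% lower. Without adjustment 4 had p below 0.05, all higher, and DESeq2 called 0. In ahk3 ahk4 basal segments 4 members were called higher and 0 lower, against 2.7% and 2.92% of all genes. They included RPS18A (1.31, adjusted p = 0.00194), RPL10aB (1.25) and RPS3C (1.00). RPS18A went from 173, 299 and 226 CPM to 604, 749 and 375 CPM, and all 16 h libraries are above all 8 h libraries. The count was 12 without ahk3 ahk4 basal 8 h replicate 2 and 11 without 16 h replicate 3, and 2 without any 1 of the other 4 libraries. DESeq2 also called 12.

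In medial segments few members were called. In WT medial segments 3 were called higher (RPP0B 0.66 and RPL8A 0.66 among them) and 4 lower (RPSaB -1.15, RPL4D -0.83, RPS6A -0.82 and RPS4A -0.61), with 10.4% of all genes called higher and 7.94% lower, so the members were called no more often than all genes. RPSaB fell from 35.1, 33.8 and 37.5 CPM to 14.9, 15.3 and 17.6 CPM, with a clear gap between the groups. RPS6A fell from 839, 1024 and 1236 CPM to 550, 571 and 633 CPM, also without overlap. The 3 higher calls became 1 without 8 h replicate 2 or 16 h replicate 1 or 3, and the 4 lower calls became 2 without 8 h replicate 3 or 16 h replicate 1. In ahk3 ahk4 medial segments 0 were called higher and 7 lower, with 5.04% of all genes called higher and 5.81% lower. Without adjustment 2 were higher at p below 0.05, and DESeq2 called those 2 higher and 14 lower. The 7 included RPS3C (-1.23), RPS11A (-1.22), RPL14A (-1.21), RPL10aB (-1.08) and RPL7aB (-0.93). RPL7aB fell from 802, 661 and 471 CPM to 308, 390.1 and 316 CPM, and the groups do not overlap. The 7 became 2 without 8 h replicate 1, 3 without 16 h replicate 1 and 13 without 8 h replicate 3.

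At 0 h members tended to be lower in basal than in medial segments of WT. EdgeR called 9 lower and 1 higher there, where 6.71% of all genes were called lower and 5.79% higher, and the median difference was -0.40. The 9 included RPS9B (-0.80), RPL12A (-0.71), RPS2C (-0.71), RPS6B (-0.66), RPL3A (-0.63), RPS7B (-0.59) and RPL18aB (-0.58). RPL3A was at 332, 335 and 341 CPM in basal and 511, 525 and 522 CPM in medial libraries, so its replicates are tight and well apart. RPS9C went the other way, at 14.0, 9.33 and 17.6 CPM in basal and 7.34, 4.43 and 6.32 CPM in medial libraries, a difference of 1.18. The 9 became 3 without basal replicate 2, 4 without medial replicate 2 and 5 without basal or medial replicate 3, and RPS9C was not called without basal replicate 3 or medial replicate 2. In ahk3 ahk4 at 0 h 0 members were called lower and 1 higher, again RPS9C (1.29), against 7.23% and 5.15% of all genes. Without adjustment 1 member was lower at p below 0.05, and DESeq2 called 0 lower.

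At 8 h few members differed between regions. In WT 3 were called higher in basal segments, RPS9C (1.18), RPSaB (0.88) and RPL8A (0.57), and 0 lower, with 6.83% of all genes called higher and 7.3% lower, so the share of members called is not above that of all genes. RPS9C was already called higher in basal segments at 0 h, the 0 h difference of RPSaB was 0.47 (adjusted p = 0.271) and that of RPL8A was -0.40 (adjusted p = 0.17). That count was 1 without WT basal 8 h replicate 3, and 0 members were lower at an unadjusted p below 0.05 or by DESeq2. In ahk3 ahk4 6 were called higher, RPSaB (1.22), RPL24B (0.68), RPL7aA (0.68), RPL5A (0.57), RPL7B (0.55) and RPS7B (0.54), and 0 lower, with 5.88% and 7.35% of all genes. The 6 became 3 without basal replicate 2 or 3 or medial replicate 1 or 2, and 1 lower call appeared without medial replicate 3. Without adjustment 1 was lower at p below 0.05, and DESeq2 called 0 lower.

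At 16 h many more members stood higher in basal segments. In WT 21 were called higher and 0 lower, where 9.88% of all genes were called higher and 10.9% lower, with a median difference of 0.39. The count was 13 without WT basal or WT medial replicate 1. RPSaB stood higher by 1.58 (SE 0.244, adjusted p = 1.26e-05), at 43.4, 50.5 and 49.0 CPM in basal and 14.9, 15.3 and 17.6 CPM in medial libraries. RPS9C (1.25) and RPS6A (1.06) were also among the largest differences. RPS6A was at 1166, 1280 and 1225 CPM in basal and 550, 571 and 633 CPM in medial libraries, with no library of one region near the other. In ahk3 ahk4 50 members were called higher in basal segments and 0 lower, where 13.5% of all genes were called higher and 13% lower, with a median difference of 0.85. RPL14A (2.11), RPS3C (2.09), RPS11A (1.81), RPS18A (1.80) and RPL10aB (1.68) were among the largest differences. RPL14A was at 449.9, 353 and 211 CPM in basal and 73.4, 90.2 and 71.7 CPM in medial libraries, with every basal library far above every medial one. In both genotypes 0 members were lower at an unadjusted p below 0.05 or by DESeq2. The members called in both genotypes number 18, which is 18 of the 21 in WT and 18 of the 50 in ahk3 ahk4. RPL24B, RPL7B and RPS4A were called in WT and missed the threshold in ahk3 ahk4. Markers of some tissues differed between these segments too. The 3 leaf antenna markers summed to 188 to 315 CPM in basal and 1230 to 1720 CPM in medial libraries of WT and to 111 to 256 CPM and 1010 to 1640 CPM in ahk3 ahk4. The 3 endodermis markers summed to 119 to 195 CPM and 1810 to 2370 CPM in WT and to 62.4 to 74.0 CPM and 1190 to 1490 CPM in ahk3 ahk4. The 4 shoot epidermis markers summed to 448 to 576 CPM and 1980 to 2570 CPM in WT. In ahk3 ahk4 they summed to 423 to 711 CPM and 1500 to 1990 CPM. By gene, ATML1 and LTP1 were called lower in basal segments of both genotypes, and CER6 in WT alone (-1.26). PDF1 was not called in WT (-4.59, adjusted p = 0.0852). In ahk3 ahk4 CER6 (0.03, adjusted p = 0.954) and PDF1 (1.27, adjusted p = 0.567) were not called. The 3 xylem markers overlapped between regions, at 30.9 to 51.2 CPM in basal and 30.1 to 62.9 CPM in medial libraries of WT. In ahk3 ahk4 they lay at 9.65 to 22.0 CPM and 19.5 to 31.9 CPM, also overlapping. The 3 phloem markers overlapped in WT, at 39.1 to 57.6 CPM and 29.0 to 44.2 CPM. In ahk3 ahk4 they were lower in basal segments, at 11.6 to 21.5 CPM against 36.4 to 52.4 CPM. The antenna, endodermis and shoot epidermis sums are lower in basal segments without overlap in both genotypes. The part of these markers in the difference was not tested. The share of multiply aligned reads was also apart, in opposite order in the genotypes, at 23.0% to 27.8% in basal and 7.94% to 17.4% in medial libraries of WT and 2.98% to 15.1% and 19.9% to 30.7% in ahk3 ahk4. With that share as a covariate 25 members were called higher in WT, with a median difference of 0.50, and 35 in ahk3 ahk4, with a median of 0.66.

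The ahk3 ahk4 line differed from WT at few members in a direct comparison. In basal segments at 0 h edgeR called 0 members higher and 0 lower, where 0.843% of all genes were called higher and 2.24% lower, 0 had an unadjusted p below 0.05 and DESeq2 called 0. At 8 h it again called 0 and 0, with 0.161% and 0.131% of all genes, 2 members were higher at an unadjusted p below 0.05 and DESeq2 called 0. At 16 h 6 members were called higher and 0 lower in ahk3 ahk4, with 2.3% of all genes called higher and 2.65% lower. They were RPL14A (1.47), RPS18A (1.25), RPS13A (1.17), RPL10aB (1.09), RPS11A (1.07) and RPL19A (0.64). RPS18A was at 604, 749 and 375 CPM in ahk3 ahk4 and 272, 233 and 221 CPM in WT, a difference with SE 0.267 and adjusted p = 0.00777. RPL14A was at 449.9, 353 and 211 CPM in ahk3 ahk4 and 133, 103 and 131 CPM in WT. For both, replicate 3 of ahk3 ahk4 is the lowest of its group and still above WT. RPS11A was at 2601, 3381 and 1124 CPM against 1210, 972 and 1200 CPM, and here replicate 3 falls inside the WT range.

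That set of 6 rested on single libraries. It became 3 without WT replicate 1, 0 without WT replicate 2 or 3, 0 without ahk3 ahk4 replicate 1 or 2, and 15 without ahk3 ahk4 replicate 3. The share of multiply aligned reads was 5.54%, 2.98% and 15.1% in the ahk3 ahk4 libraries and 27.8%, 23.0% and 23.2% in the WT libraries. Replicate 3, with the highest of the ahk3 ahk4 shares, had the lowest ahk3 ahk4 level for each of the 6 genes. With that share as a covariate 0 of the 6 were called. Markers of 3 tissues were lower in ahk3 ahk4 in these segments without overlap. The 3 endodermis markers summed to 62.4 to 74.0 CPM in ahk3 ahk4 and 119 to 195 CPM in WT, the 3 xylem markers to 9.65 to 22.0 CPM and 30.9 to 51.2 CPM, and the 3 phloem markers to 11.6 to 21.5 CPM and 39.1 to 57.6 CPM. Sums of the leaf antenna and shoot epidermis markers overlapped between genotypes. By gene, edgeR called 2 of the endodermis, 1 of the xylem and 1 of the phloem markers lower. The part of such tissue differences was not tested. Without adjustment 1 member was lower at p below 0.05, and DESeq2 called 14 higher and 0 lower.

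**Figure D5:**
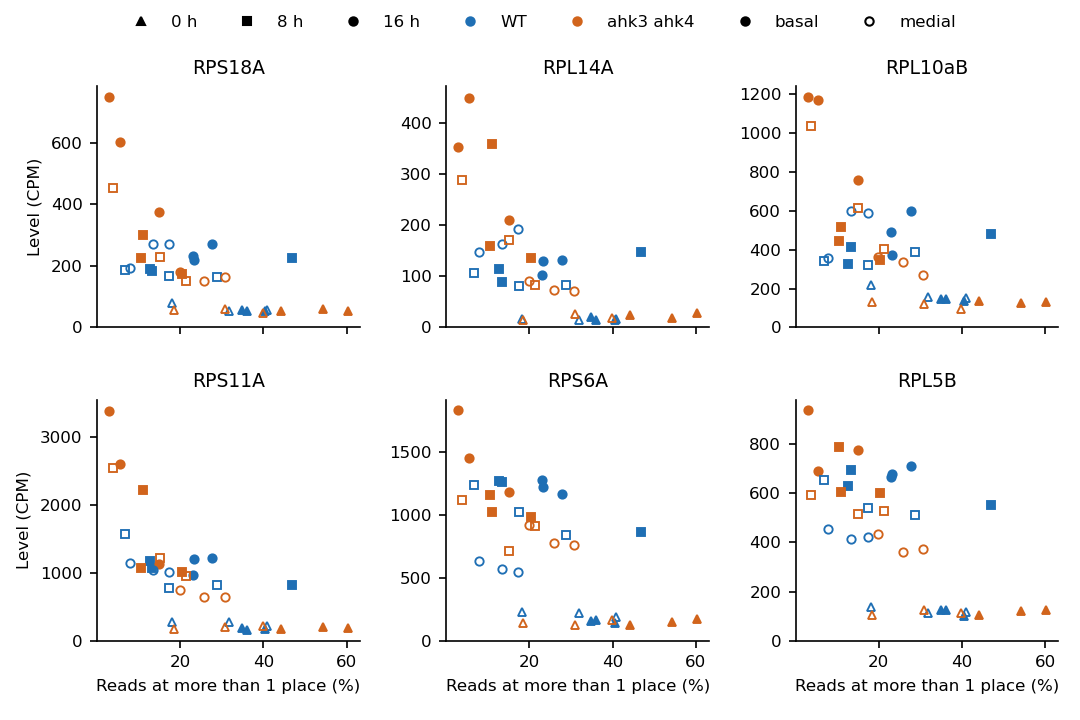
Level in CPM (vertical axes) of RPS18A, RPL14A, RPL10aB, RPS11A, RPS6A and RPL5B in each of the 36 libraries against the share of its reads that aligned at more than 1 place (%), with colour for genotype, filling for region and shape for time. The ahk3 ahk4 basal 16 h libraries have shares of 2.98% to 15.1%, and 2 of these 3 have the highest levels of RPS18A, 604 and 749 CPM.

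In medial segments few members were called between genotypes at each time. At 0 h in ahk3 ahk4 6 members were called lower and 1 higher, where 3.16% of all genes were called lower and 2.61% higher, and the median difference was -0.40. The lower ones included RPS19A (-1.02), RPL28A (-0.82), RPS6B (-0.82), RPS4A (-0.68) and RPL3A (-0.61), and RPSaB was higher (0.83). RPS19A (AT3G02080), for a protein of the 40S head, was at 122, 98.2 and 94.9 CPM in ahk3 ahk4 and 194, 239 and 206 CPM in WT. RPS6B was at 165, 156 and 171 CPM in ahk3 ahk4 and 273, 305 and 290 CPM in WT. Neither gene's groups overlap. DESeq2 called 15 lower. The 6 became 2 without WT or ahk3 ahk4 replicate 2 and 3 without WT or ahk3 ahk4 replicate 3. RPSaB was not called without any 1 of the WT replicates or without ahk3 ahk4 replicate 2 or 3. Leaf antenna markers summed to 1190 to 1200 CPM in ahk3 ahk4 and 1740 to 1850 CPM in WT medial libraries at 0 h, and phloem markers to 96.7 to 132 CPM and 177 to 196 CPM. Both sums are apart without overlap. By gene, no phloem marker was called, with SUC2 at -0.68 (adjusted p = 0.325), APL at -0.17 (adjusted p = 0.891) and SEOR1 at -0.90 (adjusted p = 0.163). Sums of the endodermis, xylem and shoot epidermis markers overlapped between genotypes. The part of these markers in the difference was not tested. At 8 h RPL10aB alone was called, higher by 0.97 (adjusted p = 0.0366), and 0 were called lower, against 1.9% and 0.363% of all genes. The share of members called higher is thus not above that of all genes. Without adjustment 4 were lower at p below 0.05, and DESeq2 called 3 higher and 0 lower. RPL10aB was at 1037, 613 and 405 CPM in ahk3 ahk4 and 386, 323 and 339.9 CPM in WT, so the groups are apart but ahk3 ahk4 replicate 1 leads. It was not called without that library or without WT replicate 2 or 3, and 5 members were higher and 1 lower without ahk3 ahk4 replicate 3. At 16 h RPL7aB alone was called, lower by -0.76 (adjusted p = 0.0256), and 0 were called higher, against 1.81% and 1.51% of all genes. Here too the share of members called is near that of all genes. Without adjustment 3 were higher at p below 0.05, and DESeq2 called 1 higher and 7 lower. With the compared groups alone in the fit 2 were higher and 12 lower, and with the share of multiply aligned reads as a covariate 0 were higher and 0 lower. That share was 25.8%, 19.9% and 30.7% in ahk3 ahk4 and 17.4%, 13.5% and 7.94% in WT libraries. RPL7aB was at 308, 390.1 and 316 CPM in ahk3 ahk4 and 612, 578 and 528 CPM in WT, with no overlap. It was not called without WT replicate 1 or 2 or ahk3 ahk4 replicate 1 or 3, and 2 were lower without WT replicate 3.

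Whether the 8 h rise differed between genotypes or regions was tested as an interaction. In basal segments the rise did not differ between genotypes for any member by edgeR, with 0 larger and 0 smaller in ahk3 ahk4, where 0.621% and 0.212% of all genes were called. Without adjustment 1 member was smaller at p below 0.05, and DESeq2 called 0. The members' differences there ranged from -0.87 to 0.76. In medial segments 5 rose more in ahk3 ahk4, among them RPL10aB (1.60), RPL23aA (1.11), RPS6B (1.07) and RPS9B (1.06), and 0 rose less, against 1.92% and 1.15% of all genes. For RPS6B the 0 h libraries of ahk3 ahk4 were lower, 156 to 171 CPM against 273 to 305 CPM, and the 8 h libraries overlapped, 507 to 824 CPM against 500 to 563 CPM. The 5 became 0 without ahk3 ahk4 8 h replicate 1, 1 without WT 0 h replicate 2, WT 8 h replicate 2 or ahk3 ahk4 0 h replicate 3, 2 without WT 0 h replicate 3, 3 without ahk3 ahk4 0 h replicate 1 or 2, and 10 without ahk3 ahk4 8 h replicate 3. Without adjustment 1 was smaller at p below 0.05, and DESeq2 called 9 larger and 0 smaller.

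Between regions, 13 members rose more in basal than in medial segments of WT and 0 rose less, where 3.19% of all genes were called larger and 2.94% smaller. They included RPS14A (1.36), RPS9B (1.25), RPL23aA (1.11), RPS6B (1.00), RPS7B (1.00), RPL8A (0.98), RPL12A (0.92), RPL18aB (0.90), RPL5A (0.89) and RPL3A (0.78). RPS9B was at 319, 269 and 304 CPM in basal and 434, 571 and 547 CPM in medial libraries at 0 h. At 8 h it was at 896, 1047 and 1051 CPM in basal and 727, 665 and 804 CPM in medial libraries. For RPS9B the order of the regions is thus opposite at the ends of the interval. RPS9B, RPL12A, RPS6B, RPL3A, RPS7B and RPL18aB were also among the members called lower in WT basal segments at 0 h. Of the members named here, RPL8A alone was called higher in WT basal segments at 8 h. The 13 became 2, 3 and 6 without WT basal 0 h replicate 3, 2 and 1, 3 and 4 without WT medial 0 h replicate 2 and 3, 7 without WT basal 8 h replicate 2 or 3, and 8 and 6 without WT medial 8 h replicate 1 and 2. In ahk3 ahk4 2 members rose more in basal segments, RPSaB (1.27) and RPL5A (0.89), and 0 rose less, against 2.56% and 2.11% of all genes. The share of members called there is near that of all genes. The 2 became 0 without ahk3 ahk4 basal 0 h replicate 2 and 1 without any 1 of 9 other libraries of these groups, the exceptions being basal 8 h replicate 1 and medial 8 h replicate 1. In the pair of region tests 0 members in WT and 1 in ahk3 ahk4 were smaller at an unadjusted p below 0.05, and DESeq2 called 0 smaller in each.

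The basal excess at 16 h also differed between genotypes, in a test added after the values had been seen. It was larger in ahk3 ahk4 for 12 members and smaller for 1, where 5.27% of all genes were called larger and 5.55% smaller. RPL14A (2.57), RPS3C (1.87), RPS18A (1.81), RPL10aB (1.76), RPS14A (1.75) and RPS11A (1.73) had the largest differences, and RPL7aB (1.31), RPL21C (1.11), RPL8C (1.05), RPL19A (1.00) and RPS9B (1.00) were also called. RPL14A was at 193, 164 and 148 CPM in WT medial libraries at 16 h, above its WT basal libraries, so its order of regions is opposite in the 2 genotypes. The WT difference itself was not called, and by edgeR 0 members were lower in WT basal segments at an unadjusted p below 0.05. RPL7B had the smaller excess (-0.87), a single call that is not above the share of all genes called smaller. RPL7B was at 915, 940.1 and 872 CPM in WT basal, 456, 478 and 476 CPM in WT medial, 596, 668 and 833 CPM in ahk3 ahk4 basal and 622, 718 and 642 CPM in ahk3 ahk4 medial libraries. RPL7B was not called without WT basal replicate 2, WT medial replicate 1 or 2, ahk3 ahk4 basal replicate 1 or 2 or ahk3 ahk4 medial replicate 2. The 12 ran from 8 to 16 with 1 library left out. They became 3 with the share of multiply aligned reads as a covariate, and the part of that share in the difference was not tested further.

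Genes around the ribosome moved as follows. Of the other 156 cytosolic ribosomal protein genes, 152 were tested, and from 0 to 8 h 147 rose and 1 fell in WT basal, 135 and 1 in WT medial, 148 and 1 in ahk3 ahk4 basal, and 149 and 1 in ahk3 ahk4 medial segments. Their median changes were 2.14, 1.62, 2.19 and 1.96, beside 2.08, 1.62, 2.28 and 1.84 for the members. Of 22 ribosome biogenesis genes, which process and assemble the subunits, 20, 19, 19 and 17 rose in the same 4 series and 0 fell. Of 28 translation factor genes 22, 15, 20 and 18 rose and 1, 1, 2 and 1 fell. Of 32 genes for plastid ribosomal proteins, a separate machine of bacterial type, 11, 21, 22 and 30 rose and 3, 0, 0 and 0 fell. The plastid genes had the opposite order of regions, with 32 of 32 lower in basal than in medial segments at 16 h in both genotypes. From 8 to 16 h in WT basal segments 31 of 32 plastid genes rose, while 0 of the 56 members did.

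Of 8 genes for TOR kinase, its partners and regulators of ribosomal protein genes, 1 rose and 2 fell from 0 to 8 h in WT basal segments, where 20.7% of all genes rose and 19.1% fell. S6K1, which encodes an RPS6 kinase, rose by 0.73 (adjusted p = 0.0381), and S6K2, its close copy, changed by -1.52 (adjusted p = 0.00145). TOR changed by -0.92 (adjusted p = 0.024). In WT medial segments 0 rose and 3 fell, against 20.6% and 19.4% of all genes. These were S6K2 (-1.82), TOR (-1.23) and RAPTOR1B (-0.69, adjusted p = 0.00775), and S6K1 changed by -0.25 (adjusted p = 0.508). In ahk3 ahk4 basal segments S6K1 rose by 1.16, S6K2 changed by -2.06 and TOR by -1.71. In ahk3 ahk4 medial segments S6K1 rose by 0.84, S6K2 changed by -1.74 and TOR by -0.82, the last short of the threshold (adjusted p = 0.0506). S6K1 and S6K2 are similar genes that lie next to each other, and how reads were divided between them was not checked.

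Markers of tissues in the segment also moved with time. The summed level of 3 leaf antenna genes went from 892 to 1120 CPM at 0 h to 23.3 to 34.7 CPM at 8 h and 188 to 315 CPM at 16 h in WT basal libraries. In WT medial libraries it went from 1740 to 1850 CPM to 224 to 419 CPM and 1230 to 1720 CPM. All 3 fell from 0 to 8 h in both WT regions. The 3 endodermis markers fell too, from a sum of 1640 to 1920 CPM to 174 to 314 CPM in WT basal and from 1410 to 2230 CPM to 320 to 825 CPM in WT medial libraries. Of 4 shoot epidermis markers 2 fell and 1 rose in each WT region, and of 3 phloem markers 2 fell. Of 3 xylem markers, IRX3 changed by 0.26 and 0.46, IRX1 by 0.10 and -0.21 and XCP1 by 0.23 and 0.34 from 0 to 8 h in WT basal and medial segments, all short of the threshold. From 8 to 16 h IRX3 and IRX1 were called lower in both WT regions, by -1.76 and -1.28 in basal and -1.87 and -1.77 in medial segments. Root hair markers summed to at most 1.03 CPM in any library, and all 3 were at 0 in every library at 8 and 16 h. What part these shifts have in the rise of the ribosomal protein genes was not tested. With the share of multiply aligned reads as a covariate the 8 h rise was called for 56, 52, 55 and 56 members in WT basal, WT medial, ahk3 ahk4 basal and ahk3 ahk4 medial segments, with medians of 1.92, 1.46, 1.77 and 1.71.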

How the data were processed

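Messenger RNA 3' ends were measured with a QuantSeq forward kit in 36 libraries of hypocotyl segments. The authors deposited 1 table of raw read counts per library, with 32833 loci and 5 lines for reads assigned to no gene, which entered neither library sizes nor tests. The submitters' processing notes name HTSeq and DESeq2 with no version. Aligner, genome build, annotation and strand setting: not given in the sources used here. Reads aligned at more than 1 place were 2.98% to 60.3% of a library (median 20.9%).

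The counts were scaled by TMM and fitted in edgeR 4.0.16 (R 4.3.3) with the robust quasi-likelihood test, after filterByExpr over the 12 groups, with 1 mean per group and 24 residual degrees of freedom. All tests were two-sided, with Benjamini-Hochberg adjustment over 19819 genes in each of 25 contrasts, and the fit was tested on simulated data first. Adjusted p-values quoted are from edgeR. Replicates are 3 biological replicates per group as the labels name them, and p-values measure the spread between these. Depth was 6136167 to 13557332 assigned reads, and at least 64366 reads of a library fell on the members. Alternatives were DESeq2 1.42.0, RLE factors, no filter on low counts, the compared groups alone, a replicate block, scaling without ribosomal protein genes, the multiply aligned share as a covariate, and each replicate left out. The test of genotype by region at 16 h was added after the data had been seen. Promoter sequences come from RefSeq TAIR10.1, which need not be the authors' build.

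The members and comparator lists were chosen with earlier results of these data known. Values per library are given for members with a known role or plant phenotype and for the called members with the largest changes in each comparison. Other members were chosen after their values were seen. Of the 56 members, 4 entered every fit and count, and their own results are not reported here.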

Additional observations from a re-analysis of the deposited data

Results flagged for a closer look

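A test of a difference between effects passed the threshold for the 28 values given here, all of them described above. By edgeR's interaction test, the rise from 0 to 8 h in medial segments was larger in ahk3 ahk4 than in WT for RPL10aB by 1.60, RPL23aA by 1.11, RPS6B by 1.07 and RPS9B by 1.06 on the log2 scale.

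In WT the rise was larger in basal than in medial segments for RPS14A by 1.36, RPS9B by 1.25, RPL23aA by 1.11, RPS6B by 1.00, RPS7B by 1.00, RPL8A by 0.98, RPL12A by 0.92, RPL18aB by 0.90, RPL5A by 0.89 and RPL3A by 0.78. In ahk3 ahk4 it was larger in basal segments for RPSaB by 1.27 and RPL5A by 0.89.

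At 16 h the difference of basal from medial segments was larger in ahk3 ahk4 for RPL14A by 2.57, RPS3C by 1.87, RPS18A by 1.81, RPL10aB by 1.76, RPS14A by 1.75, RPS11A by 1.73, RPL7aB by 1.31, RPL21C by 1.11, RPL8C by 1.05, RPL19A by 1.00 and RPS9B by 1.00, and the value for RPL7B was -0.87. How far these calls rest on single libraries is given beside each set above. The region by time calls in ahk3 ahk4 (RPSaB and RPL5A) and the RPL7B call are near or below the share of all genes called.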

How the results depend on the processing

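Of 379 called changes of single members, 0 turned direction under any alternative or with 1 library left out. Of 50 counts of called members, the number within 1.5 times of its value was 47 with RLE factors, 38 with DESeq2, 40 with no filter, 35 with the compared groups alone, 48 with the replicate block, 48 with scaling without ribosomal protein genes and 42 with the covariate. The 8 h rises were within that range throughout. For the other counts the cause was not tested.

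With the compared groups alone, from 8 to 16 h the counts were 1 higher in WT basal, 1 higher and 2 lower in WT medial, 2 higher in ahk3 ahk4 basal and 1 lower in ahk3 ahk4 medial segments. Basal against medial gave 16 lower in WT at 0 h, 1 lower in WT at 16 h and 1 higher in ahk3 ahk4 at 8 h. ahk3 ahk4 against WT in medial segments gave 0 higher at 0 h, 0 higher at 8 h, and 2 higher and 12 lower at 16 h. The interactions gave 0 (medial genotype by time), 7 (WT region by time) and 0 (ahk3 ahk4 region by time).

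DESeq2 gave, from 8 to 16 h, 5 higher in WT medial, 12 higher in ahk3 ahk4 basal, and 2 higher and 14 lower in ahk3 ahk4 medial segments. It gave 18 lower in basal segments in WT at 0 h, 14 higher for ahk3 ahk4 in basal segments at 16 h, and in medial segments 15 lower at 0 h, 3 higher at 8 h, and 1 higher and 7 lower at 16 h. Its interactions gave 9 (medial genotype by time) and 4 (ahk3 ahk4 region by time).

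With no filter the counts were 0 higher from 8 to 16 h in WT medial segments; 5 lower at 0 h and 13 higher at 16 h in basal segments of WT, and 1 higher at 8 h in those of ahk3 ahk4; 0 higher at 0 h and 0 lower at 16 h for ahk3 ahk4 in medial segments; and interactions of 2 (medial genotype by time), 3 (WT region by time), 0 (ahk3 ahk4 region by time) and 0 smaller (genotype by region at 16 h). RLE factors gave 7 higher in ahk3 ahk4 basal segments from 8 to 16 h, 0 higher for ahk3 ahk4 in medial segments at 0 h and 1 for ahk3 ahk4 region by time. Scaling without ribosomal protein genes gave 7 and 0 for the first pair. The covariate gave 2 higher in basal segments of ahk3 ahk4 at 0 h, 0 higher for ahk3 ahk4 in basal segments at 16 h, 10 lower at 0 h, 0 higher at 8 h and 0 lower at 16 h in medial segments, 0 for ahk3 ahk4 region by time, and 3 larger and 0 smaller for genotype by region at 16 h.

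Deviations from the group mean in same-numbered libraries correlated at a median of 0.0012 over 198 pairs, lowest -0.216. That median covers pairs from all groups. It cannot show whether basal and medial segments of one number came from the same seedlings, and the main fit treats them as independent. With the replicate block 0 were higher at 0 h and 2 lower at 16 h for ahk3 ahk4 in medial segments, and the other 48 counts stayed within range.

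With 1 library left out, the counts from 8 to 16 h ran from 1 to 2 higher and 2 to 5 lower in WT medial, 2 to 12 higher in ahk3 ahk4 basal, and 0 to 2 higher and 2 to 13 lower in ahk3 ahk4 medial segments. Basal against medial ran from 0 to 1 higher and 3 to 8 lower in WT at 0 h, 1 to 4 higher at 8 h and 13 to 16 higher at 16 h, and in ahk3 ahk4 at 8 h from 3 to 9 higher and 0 to 1 lower. ahk3 ahk4 against WT ran from 0 to 15 higher in basal segments at 16 h, and in medial segments from 0 to 1 higher and 2 to 4 lower at 0 h, 0 to 5 higher and 0 to 1 lower at 8 h, and 0 to 2 lower at 16 h. The interactions ran from 0 to 10 (medial genotype by time), 2 to 11 (WT region by time), 0 to 3 (ahk3 ahk4 region by time) and 0 to 1 smaller (genotype by region at 16 h).

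Limits: 3 replicates per group, no stated pairing, and a share of uncounted reads that moves with the groups. Members with few reads, such as RPP0A at 0 h, have wider errors, and intervals cover the spread between libraries.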
